A study of Mus musculus with 4 samples.

Results

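The genes described are 7 genes listed as p53 targets of DNA repair and metabolism, Ddb2, Xpc, Polk, Rrm2b, Tigar, Phlda3 and Fdxr. Whether p53 controls each of these genes in mouse cells was not tested. They were picked by symbol out of 55487 genes in the table, and all 7 reached a TPM (transcripts per 1000000 transcripts) of 1 in at least 1 library, the minimum set for a comparison. Expression was measured in cultures of primary mouse neural stem cells taken from the neocortex of midgestation embryos, with 1 library for each of 4 groups. The control was a Tut1f/f culture given empty LNP (lipid nanoparticles). Tut1 KO was a Tut1f/f culture given Cre-LNP, that is, nanoparticles with mRNA for the recombinase Cre. Trp53 KO was a p53f/f culture given Cre-LNP, and double KO was a Tut1f/f;p53f/f culture given Cre-LNP. Cre acted for 3 days, the time at which the empty LNP control was harvested is not given in the sources used here. The study measured Tut1 deletion after Cre-LNP by qPCR or long-read RNA sequencing, from the exon that Cre removes. Those measurements were not analysed here, and the table used here gives gene totals only. The floxed Tut1 allele loses exon 2, so RNA from the rest of the gene can still be counted. Trp53 KO differs from the control in the floxed allele, in the content of the nanoparticles, possibly in time, and in RNA of Xist and the Y chromosome, whose values follow below. These cannot be told apart. Tut1 encodes the uridylyltransferase that extends U6 snRNA, and the study used the double KO as a control for effects of dying cells on its splicing comparison.

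The protein p53 is a transcription factor that is stabilised after DNA damage and other stress and then binds paired half-sites near its target genes. Some targets arrest or kill the cell, whereas others repair the damage or adjust metabolism. Among the latter, Ddb2 and Xpc find damaged bases for nucleotide excision repair, Polk copies past damaged bases, Rrm2b supplies deoxynucleotides, Tigar lowers fructose-2,6-bisphosphate, Phlda3 restrains the kinase Akt at the membrane, and Fdxr passes electrons to mitochondrial ferredoxins.

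Because each group had 1 library, the error of a difference is not known, and no test was run. TPM keeps no record of read depth, so the depth is unknown and no counting interval can be given. Differences are given on the log2(TPM + 1) scale, which understates the change of low genes, and a gene is called higher or lower at 1.5-fold or more on that scale. A run of 4 TPM values gives the control first, then Tut1 KO, then Trp53 KO and last double KO. There were 4 contrasts, each between single libraries. The first Trp53 contrast is Trp53 KO minus control, and the second is double KO minus Tut1 KO, so the pair shares no library. The first Tut1 contrast, Tut1 KO minus control, shares a library with each of them, as does the second, double KO minus Trp53 KO. TPM summed to between 999874 and 999892, and 23070 to 23317 genes were above 0. Trp53 had 120 TPM in the control, 100.4 TPM in Tut1 KO, 39.7 TPM in Trp53 KO and 41.9 TPM in double KO, so it followed its label. Tut1 had 12.2 TPM in the control, 29.8 TPM in the library labelled Tut1 KO, 12.5 TPM in Trp53 KO and 13.7 TPM in double KO, so it was above the control in the library labelled Tut1 KO and not below Trp53 KO in double KO. Both Tut1 contrasts, and any direction drawn from Tut1 KO, therefore rest on the labels. Xist had 188 TPM in Tut1 KO and 204 TPM in Trp53 KO against 0.01 TPM in the control and in double KO, and the Y-linked Ddx3y was listed at 0 in the former and at 24.4 and 25.7 TPM in the latter. Each of the 4 contrasts sets a library with Xist against one with Y-linked RNA. Both libraries with Xist lay below both others for 26.2% of all genes and for 3 of the 7 (Xpc, Polk and Tigar), and above them for 11.7% and for 1 of the 7 (Fdxr). With the median of all genes set to 0 the shares were 18.4% below and 17.5% above, and Xpc left the order, as it did with quantile normalization. After a correction for transcript GC content and length the shares were 16.1% and 14.7%, Polk left the order, and Ddb2 joined Fdxr above. The grouping was seen in the data, and its part in the results was not tested. All 11 neural stem cell markers were above 1 TPM in every library, as were 5 of 8 neuronal, 2 of 5 astrocyte and 5 of 7 oligodendrocyte lineage markers. None of the 5 microglial, 4 endothelial and 5 mesenchymal markers reached 1 TPM. Summed oligodendrocyte lineage markers ranged from 1511 to 1698 TPM and summed neuronal markers from 164 to 238 TPM, and their part in the results below was not tested. In bulk RNA, fewer cells of a type and less RNA per cell cannot be told apart.

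Phlda3 alone among the 7 genes followed the Trp53 label. It was lower in both Trp53-deleted libraries than in both Trp53-intact ones by at least 1.5-fold in each contrast. Ddb2 had the opposite order, which did not hold after the GC and length correction, Polk was highest in the control and lowest in Tut1 KO, and the other four moved by less than 1.5-fold in each contrast. In the first Trp53 contrast, 2 of the 7 genes were lower (Polk and Phlda3), against 5.9% of the 15095 genes compared, and 1 was higher (Ddb2), against 5.25%. In the second Trp53 contrast, 1 was lower (Phlda3), against 5.72% of all genes, and 1 was higher (Polk), against 7.52%. The share of all genes lower in both contrasts was 1.21%, and 1 of the 7 genes was among them. Both deleted libraries lay below both intact ones for 14.4% of all genes and for 1 of the 7 (Phlda3), and above them for 14.7% of all genes and for 1 of the 7 (Ddb2). A count of 1 in 7 is close to those shares of all genes. The median difference of the 7 was -0.23 in the first Trp53 contrast and 0.13 in the second Trp53 contrast, beside -0.05 and 0.08 over all genes. With the median of all genes set to 0, 7.27% of all genes were lower and 5.51% higher in the second Trp53 contrast, and the members called were as many.

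**Figure D1:**
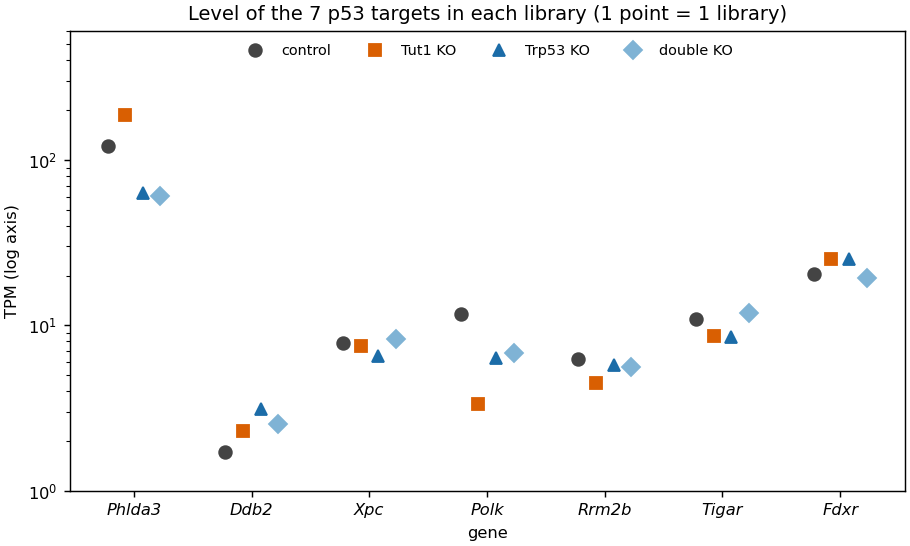
TPM of each of the 7 genes (log axis) by library, 1 point per library and no error bars. Phlda3 lies at 122 and 186 TPM with Trp53 intact and at 62.9 and 60.6 TPM without it, Ddb2 has the reverse order, and the remaining 5 genes have neither.

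Phlda3 (ENSMUSG00000041801, GRCm38 chr1:135766119-135769136, plus strand) encodes a small pleckstrin homology protein that competes with Akt for membrane lipids. Its level was 122 TPM in the control, 186 TPM in Tut1 KO, 62.9 TPM in Trp53 KO and 60.6 TPM in double KO. The groups did not overlap, and the lowest intact library lay 0.95 above the highest deleted one on the log2 scale. The difference was -0.95 in the first Trp53 contrast (1.94-fold lower in TPM) and -1.60 in the second Trp53 contrast (3.07-fold lower), values that 2.52% and 0.702% of all genes reached or passed. Within the 2 deleted libraries the gene was level, with a difference of -0.05. Phlda3 also was the single gene of the 7 that was higher in the first Tut1 contrast, by 0.60, against 5.64% of all genes. That call is just past 1.5-fold and did not hold after a correction for transcript GC content and length, which gave 0.46. The transcript of Phlda3 has 62.6% GC, the highest of the 7 genes.

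The family member Phlda1, fixed as its partner, had 54.1, 59.0, 48.6 and 53.1 TPM. It moved by -0.15 in both Trp53 contrasts, so Phlda3 was lower by more than its relative. Across the 13 genes of the Phlda family and of Akt signalling that were compared, none was called lower in either Trp53 contrast. The shares of all genes were 5.9% and 5.72%. The catalytic subunit gene Pik3ca, named for its mean over both Trp53 contrasts, had 11.5, 3.56, 11.2 and 12.8 TPM and was low in Tut1 KO. Its transcript has 41.2% GC, and genes under 45% GC had a median difference of -0.28 in the first Tut1 contrast. The genes whose pattern was nearest to Phlda3 among 9313 with at least 10 TPM in a library were Gdf15, a secreted stress cytokine and itself a known p53 target, at a distance of 0.19, and Efna3, an ephrin ligand, at 0.22, where the median gene lay at 1.42. Gdf15 had 13.2, 18.4, 6.87 and 5.67 TPM, and Efna3 7.51, 11.7, 3.46 and 4.06 TPM.

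For scale, p53 targets outside the 7 were read in the same contrasts. Cdkn1a, the cell cycle inhibitor p21, had 477, 605, 196 and 179 TPM, a difference of -1.28 and -1.75 in the Trp53 contrasts. Mdm2, the ubiquitin ligase that degrades p53, had 69.1, 69.6, 38.8 and 43.4 TPM, a difference of -0.82 and -0.67. Eda2r, a cell surface receptor, had 39.1, 33.5, 12.6 and 12.7 TPM. The 22 other p53 targets were mostly of arrest, apoptosis and feedback but also of stress metabolism, detoxification and repair. Of these, 14 were lower in the first Trp53 contrast (5.9% of all genes), 17 in the second Trp53 contrast (5.72%) and 13 in both (1.21%). Both deleted libraries lay below both intact ones for 20 (14.4%). The exceptions, named for their values, were Sesn1, a stress-induced regulator of mTORC1, with 16.4, 19.3, 16.6 and 21.4 TPM, and Gadd45a, a damage-induced gene of arrest and repair, with 11.8, 7.82, 8.88 and 10.01 TPM. That list was drawn up with earlier results of these data known and is no independent evidence of its direction. Its median differences were -0.70 and -0.84. Phlda3 was called lower in both contrasts, as were those 13, and the other 6 of the 7 genes were not.

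**Figure D2:**
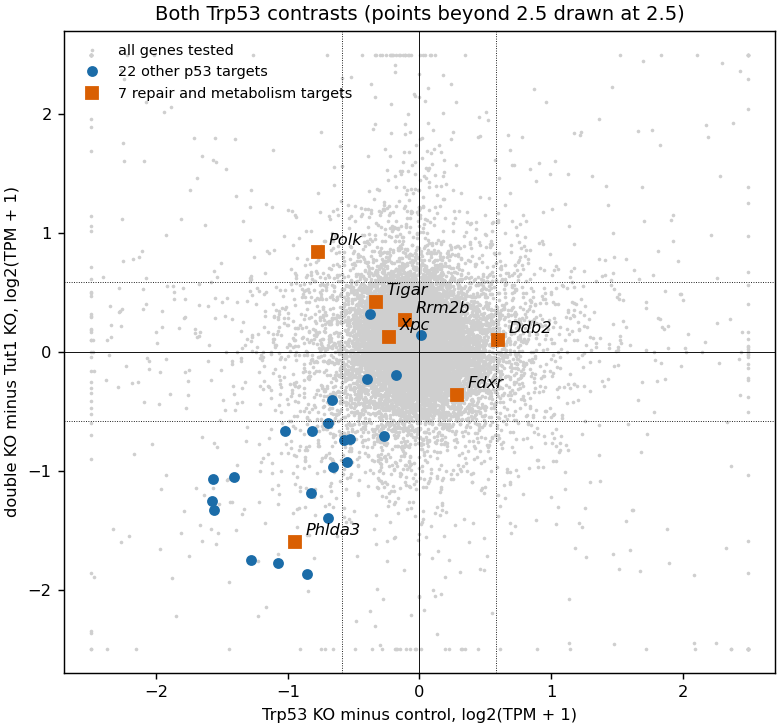
Difference in double KO minus Tut1 KO (vertical) against Trp53 KO minus control (horizontal), both on the log2(TPM + 1) scale, for all genes compared (grey), 22 other p53 targets (circles) and the 7 genes (squares); dotted lines mark 1.5-fold. Phlda3 lies at -0.95 and -1.60 among the other targets, Polk at -0.77 and 0.84, and Ddb2 at 0.60 and 0.10; the axes share no library.

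The window upstream of the start is shown for Phlda3, whose level followed the label, and for Cdkn1a as a gene with a paired site, from RefSeq (GRCm38.p6). A p53 half-site, a 10-letter motif whose consensus reads the same on both strands, was searched in 300 bases per start, 250 before and 50 after, and capitals mark matches. The 250 bases before the start of Phlda3 are chr1:135765835-135766084 (plus strand), those of Cdkn1a at its upstream start are chr17:29090729-29090978 (plus strand), and those of Polk at an internal start are chr13:96519188-96519437 (minus strand).
Phlda3: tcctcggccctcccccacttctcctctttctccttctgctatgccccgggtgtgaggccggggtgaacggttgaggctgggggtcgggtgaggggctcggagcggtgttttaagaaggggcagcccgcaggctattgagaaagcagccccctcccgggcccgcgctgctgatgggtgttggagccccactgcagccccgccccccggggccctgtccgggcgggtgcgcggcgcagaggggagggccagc
Cdkn1a: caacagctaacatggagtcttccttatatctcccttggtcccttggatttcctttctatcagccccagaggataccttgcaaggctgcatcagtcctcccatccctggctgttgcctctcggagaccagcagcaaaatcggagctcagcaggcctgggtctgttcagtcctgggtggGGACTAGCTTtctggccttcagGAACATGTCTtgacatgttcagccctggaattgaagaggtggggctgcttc
Polk: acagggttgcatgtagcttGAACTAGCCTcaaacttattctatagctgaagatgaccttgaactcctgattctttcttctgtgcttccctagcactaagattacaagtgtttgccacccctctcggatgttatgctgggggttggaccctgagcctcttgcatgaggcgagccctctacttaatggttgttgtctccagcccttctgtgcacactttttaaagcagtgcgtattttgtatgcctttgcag
Phlda3 held 0 matches, Cdkn1a 2 that form a pair spaced by at most 13 bases, and the internal start of Polk 1, whose first base is 231 bases before the start. In the Cdkn1a window the letters right after the match nearer the start, tgacatgttc, differ from the motif in the first letter only and are unmarked. The downstream start of Cdkn1a held 0 matches and the start of Mdm2 held 1, with no pair. A match was present in 8.36% of 32851 RefSeq windows of this length and a pair in 0.0731%. Windows were found for 4 of the 7 genes, and those of Tigar, Fdxr and the main start of Polk held no match. Ddb2, Xpc and Rrm2b had no window in the table. A match is a description of these letters and 0 matches says only that they are not in the window.

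Of the repair genes, Ddb2 (GRCm38 chr2:91211572-91236982, minus strand) encodes the lesion-recognising subunit of the UV-DDB complex. It was the lowest of the 7 and lay near the limit of the scale, with 1.72 TPM in the control, 2.30 TPM in Tut1 KO, 3.12 TPM in Trp53 KO and 2.54 TPM in double KO. Both deleted libraries were above both intact ones, the order opposite to the label, but by a gap of 0.10 only. After the GC and length correction double KO minus Tut1 KO was -0.03 and that order was lost. The difference was 0.60 in the first Trp53 contrast, a value 5.01% of all genes reached or passed, and 0.10 in the second Trp53 contrast. With a pseudocount of 5, which weighs down low genes, the first was 0.27. Its exons overlap those of Acp2 on the other strand, and whether the counting used strand is not given in the sources used here. Its partner Ddb1, which binds Ddb2 in the complex, had 190, 186, 169 and 176 TPM, so Ddb1 was lower where Ddb2 was higher. Genes with a pattern like that of Ddb2 were Rnaset2b and Dynlt2b at distances of 0.02 and 0.07, against a median of 0.55.

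Xpc (chr6:91489305-91515888, minus strand) encodes the protein that senses helix distortion. It had 7.83 TPM in the control, 7.45 TPM in Tut1 KO, 6.50 TPM in Trp53 KO and 8.22 TPM in double KO. The highest library was double KO and the lowest Trp53 KO, so the Trp53-deleted libraries spanned the intact ones. Both libraries with Xist were below both others, but Tut1 KO minus control turned from -0.06 to 0.03 with the median of all genes set to 0 and to 0.08 with quantile normalization, which ended that order. The differences were -0.23 in the first Trp53 contrast and 0.13 in the second Trp53 contrast. Its stabilising partner Rad23b had 177, 130, 169 and 173 TPM. Lsm3, which starts 40 bases from Xpc on the other strand and encodes a U6-binding protein, had 229, 272, 247 and 266 TPM. Of the 25 genes of nucleotide excision repair compared, 2 were lower in the first Trp53 contrast (5.9% of all genes). In the second Trp53 contrast 1 was lower (5.72%), as was 1 in both (1.21%). That gene was Ercc5, the endonuclease that cuts 3′ of the lesion, with 32.6, 29.9, 19.2 and 19.4 TPM, or -0.74 and -0.60. Rpa1, the large subunit of the single-strand binding protein, had 76.7, 51.6, 23.3 and 56.9 TPM and was low in Trp53 KO alone. It shares exons with a predicted gene, so its value is uncertain.

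Polk (chr13:96480690-96542579, minus strand) encodes DNA polymerase kappa. Its level was 11.6 TPM in the control, 3.35 TPM in Tut1 KO, 6.39 TPM in Trp53 KO and 6.80 TPM in double KO. The control was highest, Tut1 KO lowest, and the Trp53-deleted libraries lay between and close together. Both libraries with Xist were below both others, with 6.39 TPM in Trp53 KO close to 6.80 TPM in double KO, and that order was lost after the GC and length correction (double KO minus Trp53 KO -0.03). The difference was -0.77 in the first Trp53 contrast (1.82-fold lower), 0.84 in the second Trp53 contrast (2.03-fold higher) and -1.54 in the first Tut1 contrast (3.47-fold lower), so the direction turned between the Trp53 contrasts. The low Tut1 KO library enters both of the last values. Values as low were found for 3.70% of all genes in the first Trp53 contrast and 1.16% in the first Tut1 contrast. The transcript of Polk has 41.6% GC. Over the 3914 genes with a transcript under 45% GC the median difference was -0.28 in the first Tut1 contrast and 0.27 in the second Trp53 contrast, against 0.08 and -0.09 over the 3348 genes at 55% or more. After a correction for GC content and length the 3 differences were -0.66, 0.56 and -1.24, so that Polk was no longer called higher in the second Trp53 contrast. With a pseudocount of 5 the values in the Trp53 contrasts were -0.55 and 0.50, and neither was called. The partner Polh, another translesion polymerase, had 23.1, 16.8, 24.8 and 23.0 TPM, and also was lowest in Tut1 KO. The gene starting 39 bases away on the other strand, Col4a3bp, had 9.50, 7.68, 7.98 and 9.16 TPM, and moved by -0.23 and 0.23 in the Trp53 contrasts. Lrp8, a lipoprotein receptor, and Rev3l, the catalytic subunit of the translesion polymerase zeta, were nearest in pattern, at 0.21 and 0.22 against a median of 1.07. Rev3l had 54.2, 17.6, 33.5 and 39.4 TPM. Polq, the polymerase of end joining, had 13.004, 10.4, 15.4 and 15.2 TPM, so both Trp53-deleted libraries were above both intact ones. Of 11 translesion synthesis genes, 1 was lower in the first Trp53 contrast (5.9% of all genes) and 0 in the second Trp53 contrast (5.72%). In the first Tut1 contrast 3 were lower (9.24%). In the second Trp53 contrast 1 was higher (7.52%), and that gene was Rev3l, by 1.12.

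Rrm2b (chr15:37923952-37961318, minus strand) encodes the p53-inducible small subunit of ribonucleotide reductase. It had 6.25 TPM in the control, 4.49 TPM in Tut1 KO, 5.72 TPM in Trp53 KO and 5.61 TPM in double KO. Apart from Tut1 KO, the libraries were within a narrow range, and the differences were -0.11 in the first Trp53 contrast, 0.27 in the second Trp53 contrast and -0.40 in the first Tut1 contrast. Its transcript has the lowest GC content of the 7 (39.4%), and after the GC and length correction the same differences were 0.04, -0.09 and -0.03. The cell cycle subunit Rrm2 had 297, 228, 264 and 276 TPM and so was also lowest in Tut1 KO. Of 15 nucleotide supply genes, 0 were lower in either Trp53 contrast, against 5.9% and 5.72% of all genes. Tk2 and Dck, kinases of deoxynucleoside salvage, were named by rule, with 10.1, 13.3, 7.30 and 10.4 TPM and 71.3, 45.2, 62.6 and 68.6 TPM. An intron of Rrm2b holds a pseudogene of the same strand that was listed at 546 to 658 TPM and overlaps 0 exons of Rrm2b.

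Tigar (chr6:127085116-127109557, minus strand) encodes a phosphatase of the glycolytic regulator fructose-2,6-bisphosphate, and its exons overlap Platr31 on the other strand. The level was 10.9 TPM in the control, 8.63 TPM in Tut1 KO, 8.45 TPM in Trp53 KO and 11.9 TPM in double KO. Tut1 KO and Trp53 KO were low and alike, and the control and double KO high. The differences were -0.33 in the first Trp53 contrast and 0.42 in the second Trp53 contrast. Fdxr (chr11:115268024-115277050, minus strand), the ferredoxin reductase, had the reverse order, with 20.4 TPM in the control, 25.2 TPM in Tut1 KO, 25.1 TPM in Trp53 KO and 19.4 TPM in double KO. Its differences were 0.29 and -0.36. By order alone, Tigar was therefore low and Fdxr high in both libraries with Xist, with each difference under 1.5-fold. That order was found for 26.2% of all genes in the case of Tigar and for 11.7% in that of Fdxr.

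The partner of Tigar was Pfkfb3, which makes fructose-2,6-bisphosphate, and it had 50.3, 7.46, 12.2 and 8.81 TPM. It was highest in the control, with differences of -1.96 in the first Trp53 contrast, -2.60 in the first Tut1 contrast and 0.21 in the second Trp53 contrast, so all 3 cultures given Cre-LNP were low. Pfkp, a phosphofructokinase, had 28.2, 23.9, 36.6 and 32.3 TPM. Of 17 genes of this pathway, 2 were lower in the first Trp53 contrast (5.9% of all genes) and 0 in the second Trp53 contrast (5.72%). Fdx1, the ferredoxin that Fdxr reduces, had 22.9, 27.1, 21.7 and 24.1 TPM, and it was called in no contrast. In the list of ferredoxins and iron-sulfur cluster genes, 1 of 14 was lower in the first Trp53 contrast and 0 in the second. The shares of all genes were the same 5.9% and 5.72%. Isca1, an assembly factor, had 59.9, 56.4, 23.0 and 67.4 TPM, low in Trp53 KO alone, and it shares exons with a predicted gene. Hspa9, the mitochondrial chaperone of cluster assembly, had 335, 358, 353 and 443 TPM.

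**Figure D3:**
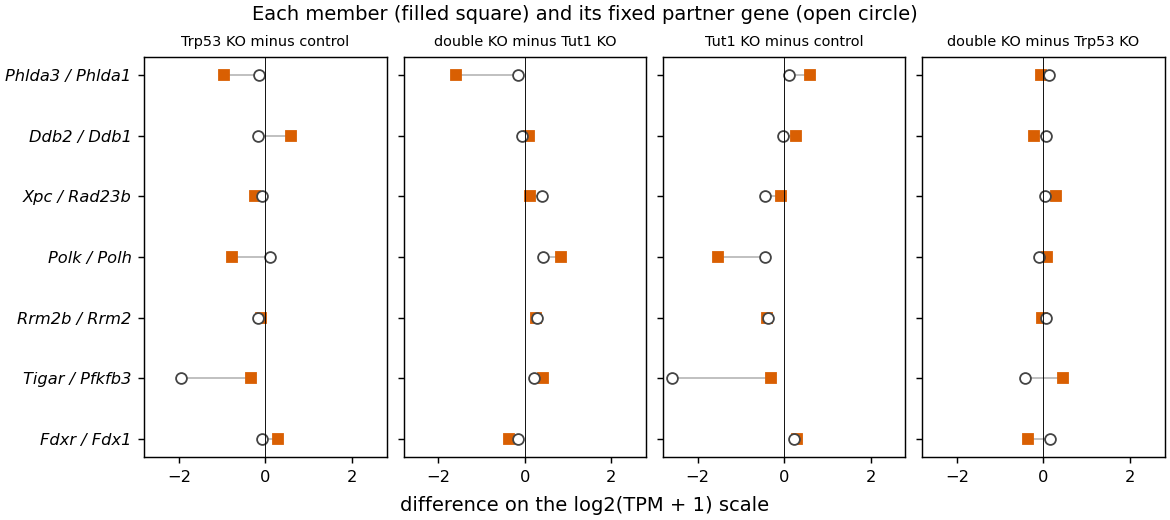
Differences on the log2(TPM + 1) scale for each of the 7 genes (filled squares) and its partner gene (open circles) in the 4 contrasts. Phlda3 stands apart from Phlda1 in both Trp53 contrasts, Polk is at -1.54 in Tut1 KO minus control, and Pfkfb3 is at -1.96 and -2.60 in the contrasts with the control.

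The Tut1 label was read with Trp53 intact and with it deleted. In the first Tut1 contrast, 1 of the 7 genes was higher (Phlda3, against 5.64% of all genes) and 1 was lower (Polk, against 9.24%). With the median of all genes set to 0, the shares of all genes became 7.59% higher and 6.55% lower. In the second Tut1 contrast, 0 of the 7 were higher, against 5.17% of all genes, and 0 were lower, against 5.47%. Differences in that contrast ran from -0.35 (Fdxr) to 0.44 (Tigar), with a median of -0.02. No gene of the 7 differed by 1.5-fold between those libraries, in which Tut1 itself was at 12.5 and 13.7 TPM. Whether the Tut1 contrasts differ from each other was not tested.

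Over the 6 pathway lists together, 95 genes were compared. Of these, 6 were lower in the first Trp53 contrast (5.9% of all genes), 1 in the second Trp53 contrast (5.72%) and 1 in both (1.21%). In the first Trp53 contrast 0 were higher (5.25%), and in the second Trp53 contrast 3 were (7.52%). Both deleted libraries lay below both intact ones for 9 (14.4%) and above them for 13 (14.7%). In the first Tut1 contrast 2 were higher (5.64%) and 10 lower (9.24%), the latter near the share of all genes. With the median of all genes set to 0 the shares of all genes were 7.59% higher and 6.55% lower. The counts of the 95 genes were not redone with that setting. For genes with a mean of 1 to 10 TPM the median absolute difference was 0.24 in the first Trp53 contrast and 0.26 in the second Trp53 contrast, and for those with 10 to 50 TPM it was 0.16 and 0.23. Xpc and Rrm2b were near or under those sizes in both contrasts. Tigar and Fdxr were above them, although a difference at least as large in either direction was seen for 27% and 25.6% of all genes in the case of Tigar, and for 32.4% and 32.1% in that of Fdxr.

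**Figure D4:**
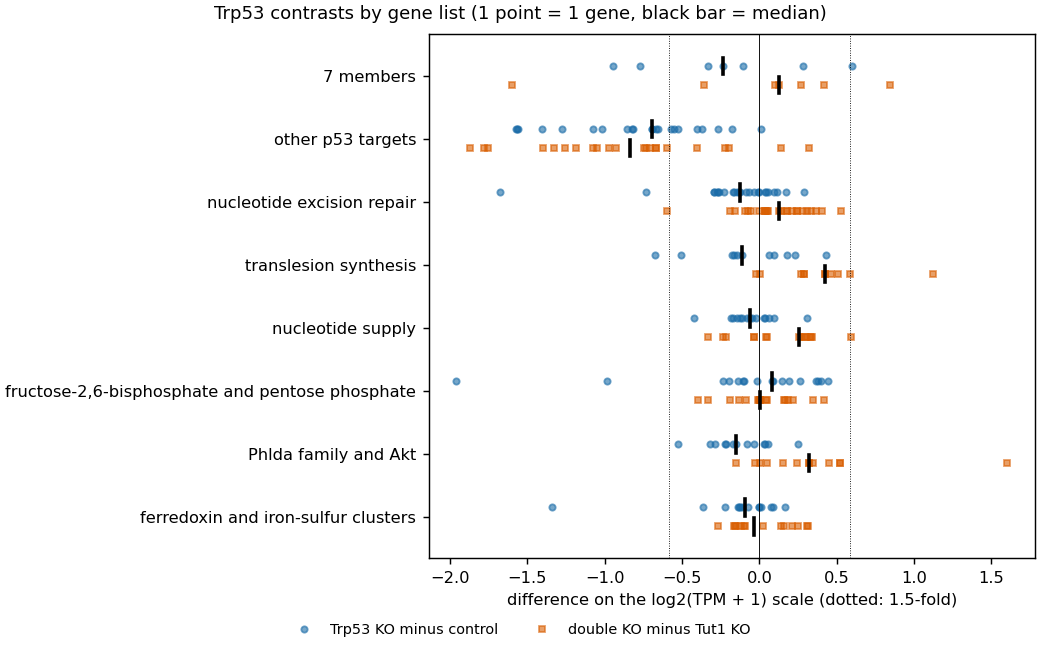
Differences on the log2(TPM + 1) scale in Trp53 KO minus control (circles) and double KO minus Tut1 KO (squares) for the 7 genes and for 7 lists; each point is a gene, black bars are medians and dotted lines mark 1.5-fold. The other p53 targets have medians of -0.70 and -0.84, and the 7 genes have medians of -0.23 and 0.13.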

How the data were processed

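RNA of cultured neural stem cells was profiled in 4 groups, grouped by genotype and treatment per the labels, with 1 library each. The deposited table held TPM values for 55487 Ensembl genes, which the authors had computed. Per the submitters' processing notes, Trimmomatic, HISAT2 and StringTie and the build mm10 were used, without roles or versions. The labels name a short-read stranded kit whereas the series text describes long-read sequencing, so the platform is not settled. No column was left unmapped (0). TPM gives no depth, so precision is unknown.

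TPM of genes with at least 1 TPM in at least 1 library (15095 genes) was taken as log2(TPM + 1). Differences of single libraries were called at 1.5-fold, and no test was run. The genes, lists and comparisons were chosen with earlier results of these data known. Named genes were the 7, Trp53, Tut1, Cdkn1a, Mdm2, 1 partner for each, of each list the 2 genes with the largest absolute mean over both Trp53 contrasts among those with at least 10 TPM in a library, genes starting within 1 kb on the other strand, and for members with a range of at least 1.5-fold the 2 genes nearest in Euclidean distance between centred log2 profiles (predicted genes, Riken clones and pseudogenes were not named). Xist, Ddx3y and the pseudogene within Rrm2b were named for their values. GC content, length and coordinates came from GENCODE M21 (GRCm38), in which 99.4% of gene IDs were found, and upstream sequences from RefSeq (GRCm38.p6).

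Alternatives were pseudocounts of 0.1 and 5, no TPM minimum, a minimum of 10 TPM, centring of every contrast on the median gene, quantile normalization, rescaling after 119 ribosomal protein and mitochondrial genes were dropped, subtraction of a quadratic fit on GC content and length, and a 2-fold threshold. The code that makes the calls was checked on simulated libraries. Python 3.11.15, numpy 2.4.6, pandas 2.3.3 and matplotlib 3.10.9 were used.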

Additional observations from a re-analysis of the deposited data

Results flagged for a closer look

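The difference by Trp53 label had opposite signs in double KO minus Tut1 KO and in Trp53 KO minus control for 5 of the 7 genes, against 55.2% of all genes, and each contrast rests on 1 library a group. The former less the latter was 1.62 for Polk, 0.75 for Tigar, 0.38 for Rrm2b and 0.36 for Xpc on the log2 scale. For Fdxr it was -0.65. After the correction for GC content and length the value of Rrm2b turned to -0.13. That of Ddb2 was -0.68, with opposite signs as well, so that 6 of the 7 genes had opposite signs, against 49.1% of all genes. None of these was tested. By construction this value is the sum of the control and double KO less that of Tut1 KO and Trp53 KO, which is also the grouping of the libraries by Y-linked RNA and Xist, so the interplay of the labels and that grouping cannot be told apart.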

How the results depend on the processing

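Phlda3 was the gene of the 7 that was lower by 1.5-fold or more in both Trp53 contrasts under every scaling, pseudocount and filter tried, with differences from -0.98 to -0.90 and from -1.68 to -1.45. No difference called at 1.5-fold changed sign under any of these, and of 212 recomputed member differences 6 changed side of the 1.5-fold threshold and 6, all of under 1.5-fold, changed sign. The latter were Xpc in Tut1 KO minus control with medians at 0 and with quantile normalization (0.03 and 0.08), and under the GC content and length correction Ddb2 and Rrm2b in double KO minus Tut1 KO (-0.03 and -0.09), Rrm2b in Trp53 KO minus control (0.04) and Polk in double KO minus Trp53 KO (-0.03). With a pseudocount of 5, genes of the 7 lower in Trp53 KO minus control numbered 1 (2.63% of all genes) and those higher in Tut1 KO minus control 0 (2.24%). With the GC content and length correction, 0 were higher in Tut1 KO minus control (6.35%). At 2-fold, 0 were lower in Trp53 KO minus control (2.29%), 0 in both Trp53 contrasts (0.384%) and 0 higher in Tut1 KO minus control (1.84%). Polk was not called higher in double KO minus Tut1 KO with the correction (0.56) or a pseudocount of 5 (0.50). A minimum of 10 TPM left 4 of the 7 genes to compare. Depth is unknown, so low genes such as Ddb2 carry counting error that cannot be sized. No paired analysis was possible because each group had 1 library.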
